A study of Caenorhabditis elegans with 12 samples.

Results

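The splicing of mog-5(az192) Caenorhabditis elegans larvae was set against that of wild-type N2 larvae of the same library set, with 3 RNA-seq libraries in each group and 6 of the 12 libraries of the study in all. The mog-5(az192) larvae were of strain SZ454 (libraries az044 to az046), and the wild-type larvae were N2 libraries az041 to az043, called N2 az04 here. The other 6 libraries were sacy-1(tn1385) larvae of strain DG3430 (az024 to az026) and a second wild-type set, az021 to az023, called N2 az02. All were whole L3 larvae, grown from bleach-isolated embryos for 34 hours at 20 °C on OP50 bacteria, and their RNA was depleted of ribosomal RNA and read as pairs of 150 nt. The pairing of each mutant with its N2 set was read from the library numbers, since the labels do not state it. No label says if the 3 libraries of a group are separate cultures, and the p-values therefore cover the spread among these libraries alone, which may be technical. The molecular nature of the az192 change is not described in them, and the files held splicing events only, so the genotype could not be checked from them.

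MOG-5 is the worm counterpart of PRP22, a helicase of the DEAH-box family that acts late in splicing. In budding yeast, Prp22 releases the spliced mRNA from the spliceosome and also proofreads exon ligation, the step at which the 3′ splice site (the acceptor) is joined to the upstream exon. Loss of the worm mog genes is known for masculinizing the germline, hence the name. Many worm introns end in a pair of closely spaced acceptors, and the choice between such acceptors is known to differ between germline and somatic tissue. The study asked, as its title gives it, whether the helicases SACY-1 and MOG-5 act against the acceptor proximal to the 5′ splice site.

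Every event listed in all 6 libraries was taken, which were 5172 of the 5267 listed events in the catalogue built on library introns and 2498 of the 2619 in the Ensembl catalogue. Use is the deposited score of an event's included form over the sum of both forms, in percent. For an acceptor pair the included form has the shorter intron, so use means use of the upstream acceptor, and the bases between the 2 acceptors are then kept in the mRNA. The files gave no gene names and no read depth, so events are given by their identifier and ce10 position, and no interval for counting error could be given. Libraries of 1 group differed by 5 points or more at 24.3% to 31.8% of library-intron events, and the mean SD per event was 4.31 points in mog-5 and 3.80 points in N2 az04. An event was called changed at a limma adjusted p (Benjamini-Hochberg within a catalogue) below 0.05 together with a difference of at least 15 percentage points.

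In mog-5 larvae, the use of the upstream acceptor rose at 66 of 3433 acceptor pairs (1.92%) and fell at none by this rule, nor on the arcsine square root scale. With 1 alternative 5′ splice site event these were 67 of the 5172 library-intron events (1.3%). The 66 events lay at 64 loci on all 6 chromosomes, and in each of them the 3 mog-5 libraries lay above the 3 N2 az04 libraries. Their differences ran from 15.1 to 63.8 points with a median of 24.9, and their standard errors from 0.436 to 6.81 points. Without the call rule, 643 acceptor pairs (18.7%) had an unadjusted limma p below 0.05 with higher upstream use in mog-5, against 32 (0.932%) with lower use. All 3 mog-5 libraries lay above all 3 N2 az04 libraries at 851 pairs (24.8%) and below them at 51 (1.49%). The corresponding shares between both wild-type sets, with N2 az04 set against N2 az02, were 17.9% above and 2.95% below. The wild-type sets thus differed in the same direction, and what part this had in the mog-5 result was not tested. Set against N2 az02 in place of N2 az04, 50 of the 66 pairs were called again, and 60 were called against all 6 N2 libraries. Over all library-intron events, 145 and 132 were called in these settings. Both settings reuse the mog-5 libraries that chose the 66 pairs, and the second also reuses N2 az04, so the counts are not independent support. In whole larvae, a changed choice within cells and a changed mix of cells cannot be told apart.

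Most of the 66 pairs were closely spaced, at a distance that is a multiple of 3 nt. Such distances are called in-frame here and the others frame-shifting, but whether a pair lies in coding sequence was not known. Of the 66 pairs, 61 were spaced by a multiple of 3 nt, or 92.4%, as were 63.8% of all tested pairs. By distance, 65 were spaced by 6 to 18 nt, as were 2545 of all 3433 tested pairs. Within that range, 61 of 1702 in-frame pairs (3.58%) and 4 of 843 frame-shifting pairs (0.474%) were called. The intron before the upstream acceptor had a median length of 50 nt in the called pairs, against 56 nt in all tested pairs 6 to 18 nt apart. Upstream use became the majority form (at least 50% in mog-5 and below 50% in N2 az04) at 27 of the 66, while at 14 it was already 50% or more in N2 az04.

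Averaged over events in 8 distance classes, the difference was widest at 9 nt. The 570 pairs 9 nt apart had a mean upstream use of 31.9%, 35.1% and 30.9% in the mog-5 libraries az044, az045 and az046, against 28.2%, 25.2% and 27.4% in the N2 az04 libraries az041, az042 and az043. The groups did not overlap, and az045 stood above the other mog-5 libraries. The difference was 5.70 points (means ± SD of 32.6% ± 2.23 for mog-5 and 26.9% ± 1.57 for N2 az04, n = 3 each), and 28 of these pairs (4.91%) were called. At 6 nt, the commonest distance with 788 pairs, the means were 33.1%, 36.8% and 31.4% in mog-5, against 31.5%, 27.3% and 29.4% in N2 az04. Here the groups overlapped, since the lowest mog-5 library, az046, lay just below the highest wild-type library, az041, and the difference of 4.39 points (33.8% ± 2.74 for mog-5 and 29.4% ± 2.08 for N2 az04, SD, n = 3 each) did not separate them. It was 2.89 points without az045, and against N2 az02 it was 8.68 points at 6 nt and 9.50 points at 9 nt, the cause of which was not tested. Of these pairs 23 were called (2.92%). In-frame pairs 12 to 18 nt apart, 344 in number, had means of 36%, 38.4% and 35.1% in mog-5, against 32.6%, 31.1% and 32.0% in N2 az04, with no overlap and 10 called (2.91%).

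The frame-shifting pairs differed less in their means. At 7 to 8 nt the 480 pairs averaged 22.2% ± 1.25 for mog-5 and 19.9% ± 0.93 for N2 az04 (SD, n = 3 each), 2.33 points apart with 2 called. At 10 to 17 nt the 363 pairs averaged 22.7% ± 0.32 for mog-5 and 20.8% ± 0.23 for N2 az04, 1.95 points apart with 2 called. Neither class overlapped between groups. The 4 called frame-shifting pairs, named here for their small number, were A3.02219 (8 nt), A3.00123 (7 nt), A3.02895 (13 nt) and A3.03323 (10 nt). Each lost its call without any one of az041, az042 or az043, and A3.03323 without any one of the 6 libraries. The differences where a call was lost were 29.3 to 33.6 points at A3.00123, 24.1 to 27.1 at A3.02895 and 14.7 to 18.3 at A3.03323. A3.03323 was also lost on the arcsine square root scale, in the fit of all 12 libraries, against N2 az02 and under adjustment over both catalogues. A3.00123 was also lost in the fit of all 12 libraries, and A3.02219 against N2 az02 and under adjustment over both catalogues. Pairs only 3 nt apart, 235 in number, differed by 0.89 points (73.1% ± 0.45 in mog-5 and 72.2% ± 0.29 in N2 az04), without overlap and with none called. Frame-shifting pairs of 1 to 5 nt differed by 0.65 points and pairs of 19 nt or more by -0.39 points, and in both the groups overlapped. Both values moved with single libraries: the first was 0.25 points without az045 and 1.10 points without az046, and the second was -0.60 points without az044 and -0.22 points without az042. An exact two-sided permutation test over the libraries cannot go below p = 0.1 with 3 against 3. The exact test gave that smallest value for the 3 nt, 9 nt, in-frame 12 to 18 nt, frame-shifting 7 to 8 nt and 10 to 17 nt classes, and p = 0.2 for 6 nt. After Benjamini-Hochberg adjustment over 15 class and type means these were 0.25 and 0.375.

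**Figure D1:**
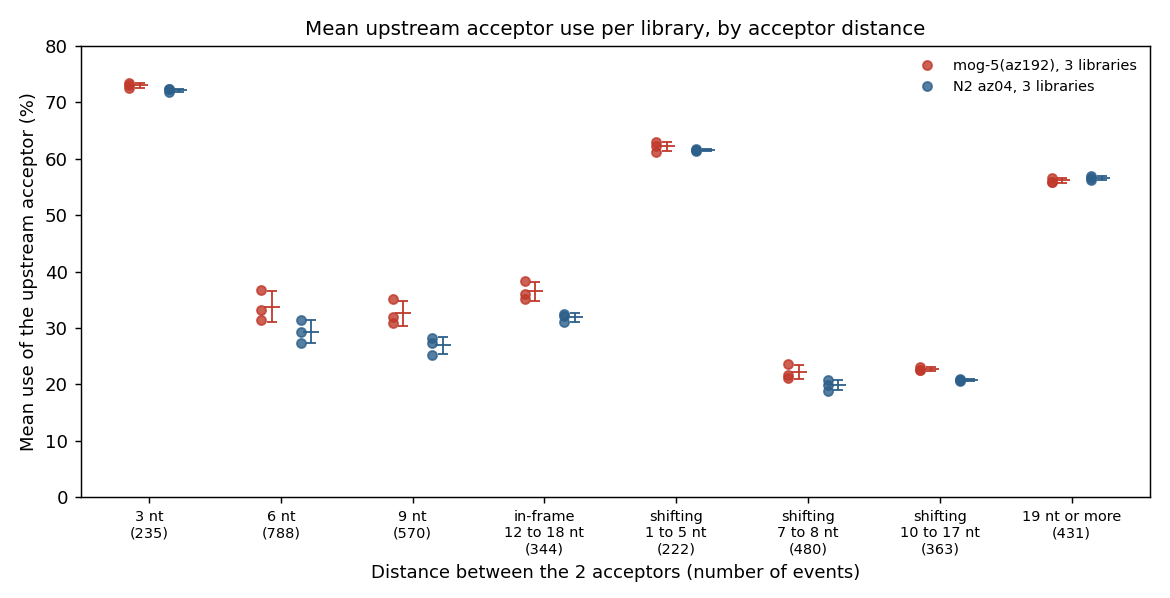
Mean use of the upstream acceptor (%) in each library, by distance between the 2 acceptors, with the number of events under each class; points are libraries, bars beside them mean ± SD (n = 3). The mog-5 libraries lie above the N2 az04 libraries in all 4 classes from 7 to 18 nt, overlap them at 6 nt and meet them at 19 nt or more.

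Resolved to single nucleotides, the difference stood above 4 points at 6, 9, 12 and 15 nt and lay below 3 points at every frame-shifting distance from 1 to 17 nt. Beyond 18 nt, the frame-shifting distances of 19 and 23 nt had 10 pairs each. Their differences were 6.73 and 4.07 points, without overlap at 19 nt and with overlap at 23 nt. The pair A3.03325, with 63.8 points, is 1 of the 10 at 19 nt, where the median difference over pairs was 0.06 points. The mean difference was 4.39, 5.70, 4.86 and 5.51 points at 6, 9, 12 and 15 nt. At 7, 8, 10 and 11 nt, the frame-shifting neighbours, it was 2.13, 2.63, 2.15 and 2.30 points. The in-frame distance of 18 nt, with 47 pairs, stood apart with 1.74 points. At 1 nt the sign was the opposite: the 52 pairs averaged 78.4%, 77.2% and 76.7% in mog-5, against 78.7%, 80.8% and 80.4% in N2 az04, with a mog-5 difference of -2.50 points and no overlap. Of those 52 pairs 28 were higher and 19 lower in mog-5, and over the 49 of them listed in all 12 libraries the difference was -0.50 points with overlap (80.5% in mog-5 and 81.0% in N2 az04). The separation at 1 nt therefore rests on 3 pairs. These values are descriptions with no test of their own.

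**Figure D2:**
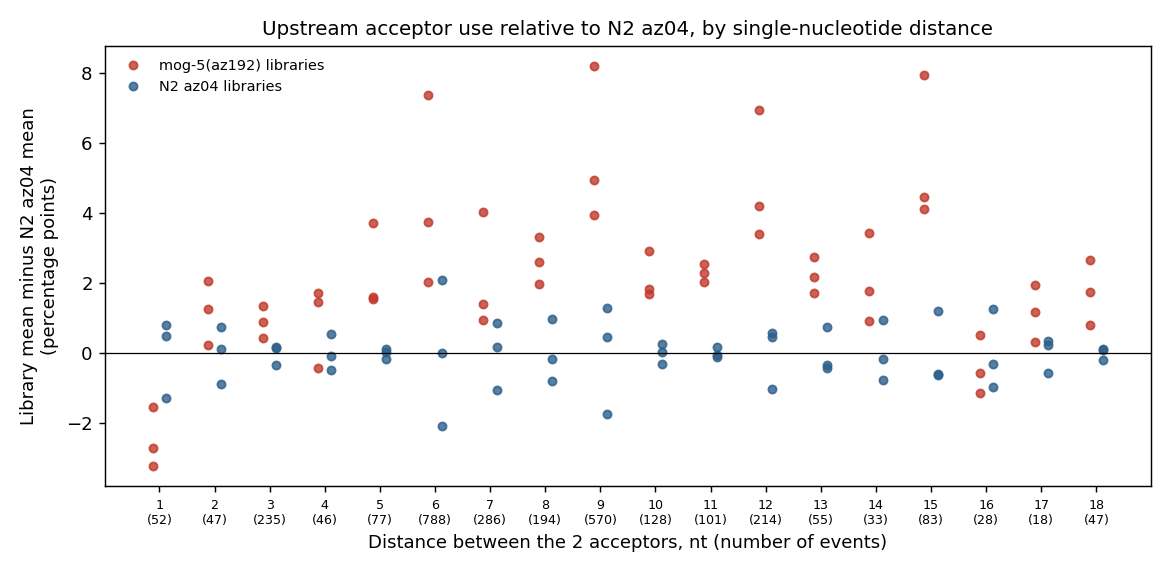
Mean upstream acceptor use of each library minus the N2 az04 mean (percentage points), for each distance from 1 to 18 nt with the number of events below it; points are libraries. Peaks stand at 6, 9, 12 and 15 nt, the mog-5 libraries lie furthest apart from each other at 6 and 9 nt, and at 1 nt they lie below the N2 az04 libraries.

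The size of the difference varied with how often the upstream acceptor was used in wild type. Pairs 6 to 18 nt apart were divided by their use in N2 az02, which did not enter the comparison. Where N2 az02 used the upstream acceptor at 10 to 50%, the 596 pairs averaged 39.4% ± 4.27 for mog-5 and 31.5% ± 2.96 for N2 az04 (SD, n = 3 each), which were 7.94 points apart, and 47 of them were called (7.89%), against 65 of all 2545 pairs 6 to 18 nt apart (2.55%). Where it used it at 50 to 90%, the difference was 5.32 points and 9 of 216 were called (4.17%). Rarely used acceptors differed less, by 3.82 points at 1 to 10% use, with 9 of 769 called (1.17%), and by 1.32 points below 1%, with none called. Acceptors at 90% or more differed by 0.85 points, with none called. The groups did not overlap in any of these 5 bins. The wild-type sets differed by bin as well, over events listed in all 12 libraries. N2 az04 minus N2 az02 was 7.67 points at 10 to 50% use and -0.92 points at 50 to 90%. It was 3.33 points at 1 to 10%, 0.51 points below 1% and 0.10 points at 90% or more. What part this had in the mog-5 differences was not tested. A difference in points has less room near 0% and 100%, so these sizes are not comparable as fold changes. By length of the shorter intron the difference of mog-5 from N2 az04 was 4.48 points under 60 nt, 3.10 points from 60 nt to below 300 nt and 3.72 points at 300 nt or longer.

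Chromosome X gave the tightest comparison. Its 378 pairs 6 to 18 nt apart averaged 31.3%, 31.9% and 30.2% in mog-5, against 27.1%, 26.6% and 26.8% in N2 az04. The groups stood 4.35 points apart with SDs of 0.83 and 0.25 points in mog-5 and N2 az04. On the 5 autosomes the 2167 pairs differed by 3.91 points, close to the X value, but with SDs of 2.05 and 1.47 points. The overlap at 6 nt belonged to the autosomes: the 126 pairs on X had 29.7%, 29.6% and 28.4% in mog-5, against 25.7%, 23.9% and 24.1% in N2 az04, without overlap. The wild-type sets differed least on X as well. Over events listed in all 12 libraries, N2 az04 minus N2 az02 was 0.70 points on X and 3.28 points on the autosomes, with 2.17 to 4.33 points on single autosomes. Of 523 tested acceptor pairs on X, 16 were called (3.06%), the highest share of the 6 chromosomes, and chromosome II had the lowest with 7 of 586 (1.19%). Whether these shares differ was not tested.

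**Figure D3:**
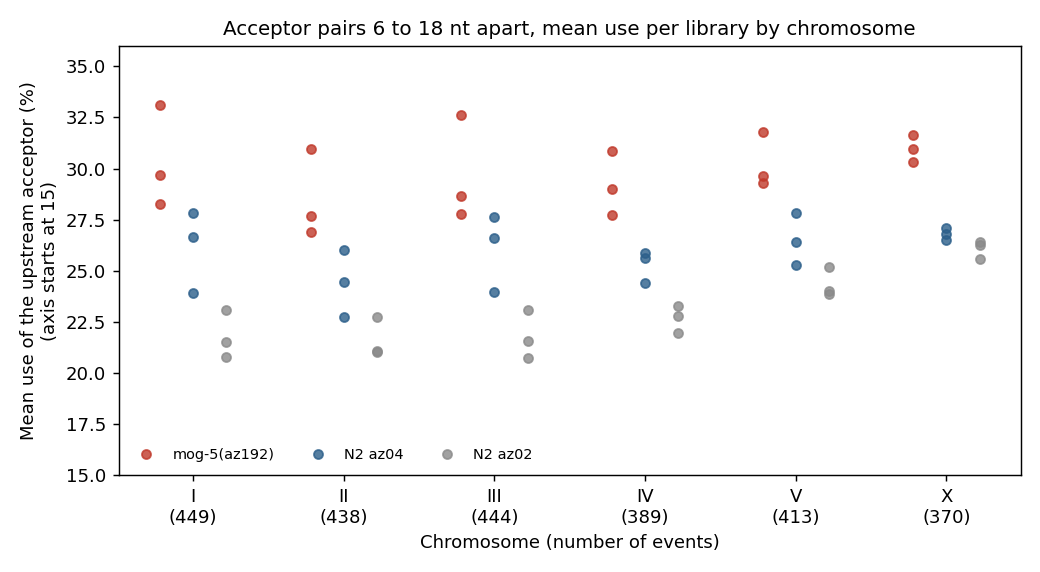
Mean use of the upstream acceptor (%; the axis starts at 15) for pairs 6 to 18 nt apart in each library of mog-5, N2 az04 and N2 az02, by chromosome; points are libraries and numbers count events listed in all 12 libraries. On X both wild-type sets lie close together below mog-5, whereas on the autosomes N2 az04 lies between mog-5 and N2 az02.

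Single pairs moved much further than the means. Upstream use of A3.00214 on chromosome I (plus strand, acceptors at 6125647 and 6125653, 6 nt apart) was 64.7%, 65.6% and 65.7% in mog-5, against 23.1%, 23.4% and 21.8% in N2 az04. Each group kept within 2 points while the groups stood 42.6 points apart (standard error 0.58, limma adjusted p = 0.000122). A3.02737 on chromosome V (minus strand, acceptors at 11964377 and 11964371, 6 nt) was as tight, with 70.9%, 70.5% and 70.2% in mog-5, against 42.3%, 42.1% and 43.3% in N2 az04. It differed by 28.0 points (standard error 0.44) with the same adjusted p. In both pairs the upstream acceptor was the majority form in each mog-5 library and the minority form in each wild-type library.

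These 2 pairs belonged to 11 that were still called when any one of the 6 libraries was removed. Upstream use of A3.00306 on chromosome I (minus strand, acceptors at 7539255 and 7539246, 9 nt) was 60.7%, 66.6% and 62.1% in mog-5, against 19.2%, 14.3% and 18.7% in N2 az04, with a mog-5 difference of 45.8 points (limma adjusted p = 0.00472). A3.02334 on chromosome IV (minus strand, 15999282 and 15999276, 6 nt) had 48.9%, 51.4% and 54.3% in mog-5, against 10.5%, 3.8% and 5.6% in N2 az04, so an acceptor hardly used in wild type took up about as much splicing as its neighbour. A3.00138 on chromosome I (minus strand, 4697199 and 4697190, 9 nt) was also little used in wild type, with 34.1%, 33.4% and 34.1% in mog-5, against 6.2%, 3.8% and 3.7% in N2 az04. No group overlap was seen in any of the 3, and the last 2 differed by 44.9 and 29.3 points (limma adjusted p = 0.00526 and 0.000911).

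Of the same 11, the remaining pairs had a well used upstream acceptor in wild type already. A3.01714 on chromosome III (plus strand, 11691193 and 11691202, 9 nt) had 78.2%, 80.4% and 78.7% in mog-5, against 34.1%, 36.1% and 37.1% in N2 az04. A3.03213 on X (plus strand, 8024505 and 8024517, 12 nt) had 86.8%, 84.5% and 82.5% in mog-5, against 48.6%, 46.9% and 46.8% in N2 az04. A3.00812 on chromosome II (plus strand, 7247294 and 7247300, 6 nt) had 83%, 80.8% and 81.7% in mog-5, against 50%, 48.1% and 46.2% in N2 az04. In these 3 pairs the upstream acceptor had at most 50% in wild type, and it was the clear majority form in each mog-5 library. A3.03418 on X (minus strand, 14817556 and 14817550, 6 nt) had 65.7%, 67.1% and 69.5% in mog-5, against 29.2%, 30.6% and 32.7% in N2 az04. A3.03212, also on X (plus strand, 8022721 and 8022727, 6 nt), had 81.4%, 83.3% and 82.7% in mog-5, against 57.2%, 52.7% and 52.9% in N2 az04. A3.03356 on X (plus strand, 12783322 and 12783328, 6 nt) had the smallest difference of the 11, with 45.8%, 44.7% and 44.2% in mog-5, against 28.8%, 27.6% and 29.2% in N2 az04. Differences of these 6 pairs ran from 16.4 to 43.3 points, the groups did not overlap, and their limma adjusted p-values ran from 0.000557 to 0.00526. Against N2 az02, the calls of A3.00812 and A3.03356 were lost, the second also with a trend of the spread on the mean.

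The other 55 called acceptor pairs lost their call when at least 1 library was left out. The 2 widest differences were among them. A3.03325 on X (minus strand, 11125149 and 11125130, 19 nt), the one called pair beyond 18 nt, had 75%, 66.7% and 50% in mog-5 and was listed at 0.1% in each N2 az04 library. Its difference of 63.8 points had the widest standard error of the called pairs, 6.81 points (limma adjusted p = 0.0271). It was no longer called without az044, az045, az041, az042 or az043, at 58.2 to 63.8 points. Its call was also lost in the fit of all 12 libraries, and the filter on extreme values removed the pair. In sacy-1 it had 66.7%, 0.1% and 80%, against 0.1% in each N2 az02 library. A3.03114 on X (plus strand, 5286961 and 5286973, 12 nt) had 61.4%, 64.9% and 51.3% in mog-5, against 9.7%, 4% and 5.4% in N2 az04. It differed by 52.8 points (limma adjusted p = 0.0148), and was lost without az044, az041, az042 or az043, at 51.7 to 54.5 points. In both pairs the mog-5 libraries spread over 10 points or more while the wild-type libraries stayed low.

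Of the 20 widest differences, which ended at 32.0 points with 1 event per locus, 3 more are given for their distances of 18, 12 and 8 nt. A3.00066 on chromosome I (minus strand, 2765697 and 2765679) moved across 18 nt, with 67.5%, 65.8% and 60.4% in mog-5, against 28.5%, 18.5% and 21.4% in N2 az04. A3.00874 on chromosome II (plus strand, 8217295 and 8217307, 12 nt) had 88.8%, 87.6% and 85.6% in mog-5, against 55%, 48.1% and 49% in N2 az04. A3.02219 on chromosome IV (plus strand, 11505501 and 11505509) had the frame-shifting distance of 8 nt, with 48.6%, 65.4% and 62% in mog-5, against 17.4%, 21% and 23.3% in N2 az04. The differences of the 3, whose selection required groups without overlap, were 41.8, 36.6 and 38.1 points (limma adjusted p = 0.0158, 0.00761 and 0.0423). Without az044, az045, az042 or az043 the first lost its call (39.7 to 41.2 points), without az043 the second did (35.8 points), and without any library but az044 the third did (34.8 to 39.5 points).

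**Figure D4:**
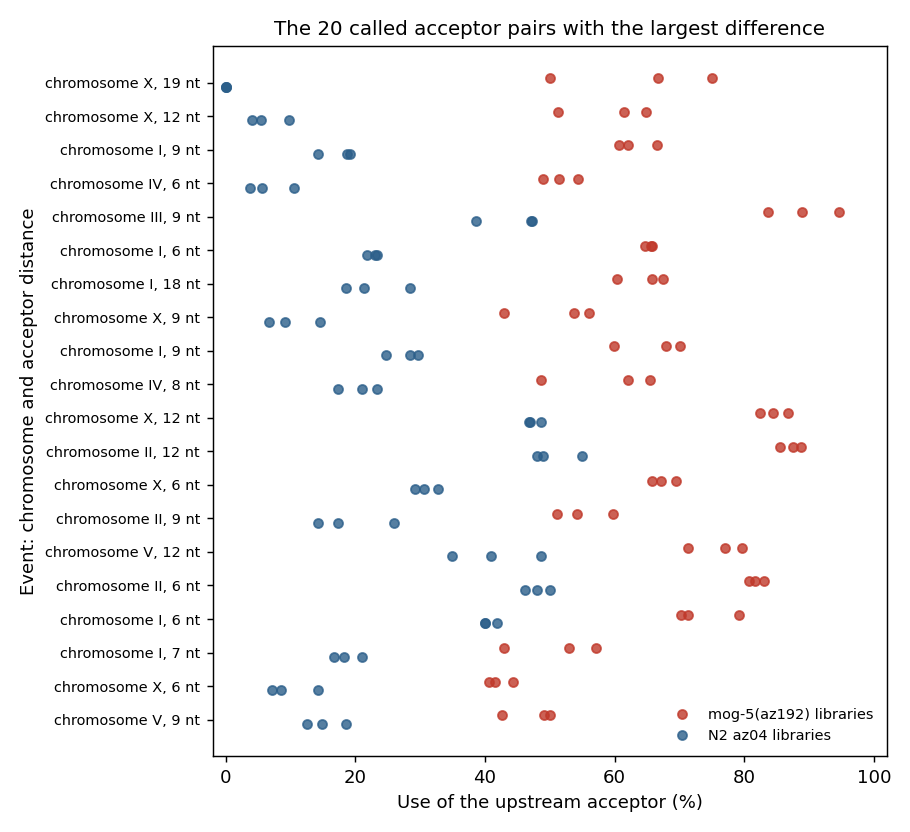
Use of the upstream acceptor (%) in each mog-5 and N2 az04 library for the 20 called pairs with the largest difference, 1 per locus, from the widest at the top; points are libraries. The pairs were drawn from those without overlap between groups, and the wild-type starting level runs from 0.1% to 55%.

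Few sites were counted more than once. A3.01714 had a companion at the same acceptors, A3.01715, with 88.9%, 94.6% and 83.6% in mog-5, against 38.6%, 47.2% and 47.1% in N2 az04, a call lost without any library but az046 (41.9 to 46.2 points). A3.00811 likewise shared the acceptors of A3.00812. The 66 called events therefore held 64 distinct acceptor pairs.

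Changes toward the downstream acceptor were few. An adjusted p below 0.05 with no minimum difference was reached by 132 pairs with higher and 2 with lower upstream use in mog-5. A3.00536 on chromosome I (plus strand, 12975389 and 12975395, 6 nt) had 28.2%, 26.2% and 22.4% in mog-5, against 37.4%, 38.7% and 40.8% in N2 az04, with a mog-5 difference of -13.4 points (limma adjusted p = 0.0436). A3.00252 on chromosome I (minus strand, 6606218 and 6606185, 33 nt) had 6.8%, 6.3% and 5.5% in mog-5, against 15.1%, 13.8% and 13.8% in N2 az04, with a mog-5 difference of -8.03 points (limma adjusted p = 0.0111). Both groups stood apart in both pairs, which were below the 15 points that a call needed. A3.03145 on X (plus strand, 3 nt) had a wider difference of -18.8 points but missed the test (limma adjusted p = 0.134).

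Other kinds of splicing event differed little. Of 1739 alternative 5′ splice site events 1 was called (0.0575%), and 67 had an unadjusted limma p below 0.05 with a higher use of the included form in mog-5 (3.85%) and 54 with a lower one (3.11%). The called event, A5.00110 on chromosome I (plus strand, 4 nt), had 55.6%, 41.7% and 60% in mog-5, against 0.1%, 0.1% and 12.5% in N2 az04. It differed by 48.2 points (limma adjusted p = 0.0436), and its call was lost without any single library (44.4 to 53.5 points). It was also lost on the arcsine square root scale, in the fit of all 12 libraries, under adjustment over both catalogues, against N2 az02 (19.04 points) and against all 6 N2 libraries (33.6 points). In the Ensembl catalogue 1 of 2498 events was called (0.04%), a mutually exclusive exon event (MX.0000017), with 24.7%, 23.9% and 25.4% in mog-5, against 10%, 9.4% and 9.5% in N2 az04. Its difference of 15.02 points (limma adjusted p = 0.00372) was no longer called without az044, az046, az041, az042 or az043 (14.7 to 15.2 points). This event holds the acceptors of A3.00214, so it is not a separate site. Last-exon events of that catalogue likewise held acceptors of 4 called pairs. Among them was AL.0000064 at the acceptors of A3.01958, with the same 27.3 points in both catalogues and a limma adjusted p of 0.101 in the Ensembl one. AL.0000158 and AL.0000197 held those acceptors too, with -27.3 points, and AL.0000024 held those of A3.01058, with -35.8 points. AL.0000193 and AL.0000289 had the sign of their pairs, A3.03077 and A3.03379. The call of A3.01958 in the library-intron catalogue (limma adjusted p = 0.022) was lost without any single library, at 25.2 to 29.2 points.

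Mean use by event type differed by at most 0.59 points. Retained introns, 834 events, had 55.8%, 55.5% and 55% in mog-5, against 55%, 54.5% and 55% in N2 az04, and the groups met at 55%. Skipped exons (585 events) differed by -0.13 points, first exons (569) by 0.20 points, last exons (283) by 0.16 points and mutually exclusive exons (67) by 0.44 points, all with overlap. Multiple skipped exons (160) differed by -0.42 points without overlap, with the exact permutation test at its smallest p of 0.1. Over all Ensembl events, 135 had an unadjusted limma p below 0.05 with higher use in mog-5 (5.4%) and 119 with lower use (4.76%). Among the 585 skipped exons these were 26 higher and 53 lower, and among the 834 retained introns 41 higher and 17 lower. First exons had 28 higher and 22 lower, and last exons 29 higher and 17 lower. The last-exon counts hold the acceptors of A3.01958 more than once and in both directions. All 3 mog-5 libraries lay above all 3 N2 az04 libraries at 6.67% of skipped exons and below them at 10.4%. For retained introns these shares were 6.95% and 2.88%. Whether such shares differ was not tested. No exon-skipping, first-exon, last-exon or retained-intron event was called by limma with adjustment within the catalogue, nor on the arcsine square root scale. Under adjustment over both catalogues 7 Ensembl events were called, with last-exon events and the retained intron RI.0000319 among them. RI.0000319 on X had 52.1%, 42.9% and 50% in mog-5, against 16.4%, 21.2% and 20.6% in N2 az04. It differed by 28.9 points, with a limma adjusted p of 0.101 within the catalogue.

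The most similar comparison in the study was sacy-1(tn1385), set against its own N2 az02. The protein SACY-1 corresponds to DDX41 of humans, also a helicase of the spliceosome but of the DEAD-box family. The upstream acceptor was called higher in sacy-1 at 310 of 3370 pairs (9.2%) and lower at 3 (0.089%). Of the 66 pairs called in mog-5, 63 had a higher mean in sacy-1 than in N2 az02 and 52 were called there. Those 52 are 78.8% of the mog-5 calls and 16.6% of the 313 acceptor pairs called in sacy-1. Over all 3345 acceptor pairs listed in all 12 libraries, sacy-1 stood 5.95 points above N2 az02 on average. The share of these with a higher sacy-1 mean was not counted. Averaged over the 66 pairs, upstream use was 58.9%, 60.5% and 58.1% in mog-5, against 32.7%, 30.2% and 31.8% in N2 az04, and it was 68.7%, 68.8% and 70.2% in sacy-1, against 29.8%, 30.7% and 27.4% in N2 az02. The median sacy-1 difference was 43.9 points. The 3 pairs that were not higher in sacy-1 were A3.00728, A3.01533 and A3.02652, with differences of -21.7, -17.5 and 0 points, and are named after their values were seen. Their mog-5 calls were lost without az044, az045, az041, az042 or az043 (18.8 to 30.5 points), and that of A3.00728 also without az046. All 3 calls were also lost in the fit of all 12 libraries, against all 6 N2 libraries and against N2 az02. Against N2 az02 the differences of A3.00728 and A3.02652 turned to -13.8 and -2.81 points. The calls of A3.00728 and A3.01533 were lost with a variance trend too. Libraries of 1 group spread widely at these pairs, as at A3.01533 with 14.3%, 28.6% and 22.2% in sacy-1, against 66.7%, 22.2% and 28.6% in N2 az02.

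Where the effects of both mutants differed by the interaction test, the mog-5 effect was the smaller in absolute size at 123 of 124 events. The difference of the effects was tested as a limma interaction over the 12 libraries, and it had an adjusted p below 0.05 at 116 of 5019 events with the mog-5 effect below the sacy-1 effect (2.31%) and at 8 with it above (0.159%). Of the 66 called pairs, 21 were among the 116 and none among the 8. A3.02911 on chromosome V (minus strand, 19121905 and 19121899, 6 nt) had 48%, 50.7% and 42.6% in mog-5, against 26.5%, 20.3% and 24.3% in N2 az04. In sacy-1 it had 79.6%, 82.6% and 79.2%, against 8.6%, 8.9% and 11.1% in N2 az02. The effects were 23.4 and 71.0 points, which differed by -47.6 points (limma adjusted p = 8.57e-05), and the wild-type levels of both sets differed too. Its mog-5 call was lost without az044, az045, az041, az042 or az043, at 21.6 to 24.8 points. At A3.00167 on chromosome I (plus strand, 5260427 and 5260439, 12 nt) the effects were 21.7 points in mog-5 and 69.3 points in sacy-1. Its mog-5 call was lost without any single library (19.5 to 23.7 points). A3.02737, in contrast, had 72.4%, 69.6% and 72.6% in sacy-1, against 45.2%, 44.8% and 44.1% in N2 az02, so both effects differed by 1.15 points (limma adjusted p = 0.803 for their difference). The 1 event of the 124 with the larger absolute effect in mog-5 was the acceptor pair A3.03372 on X (plus strand, 6 nt), with a mog-5 difference of 11.6 points, and it was chosen after its values were seen. It had 75.8%, 78.2% and 76.2% in mog-5, against 68.6%, 65.7% and 61% in N2 az04, and it had 66.7%, 64.3% and 64.2% in sacy-1, against 64.9%, 68.1% and 67% in N2 az02. The mog-5 libraries stood above the other 9, and the difference of effects was 13.2 points (limma adjusted p = 0.0312).

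**Figure D5:**
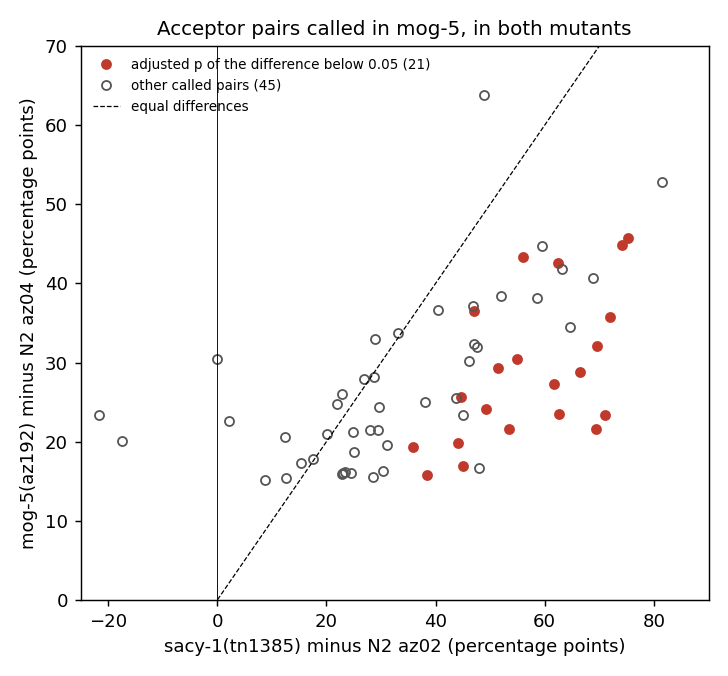
Difference in upstream acceptor use (percentage points) at the 66 pairs called in mog-5, in mog-5 minus N2 az04 (vertical) and in sacy-1 minus N2 az02 (horizontal); each point is 1 pair, filled where the interaction had an adjusted p below 0.05, and the dashed line marks equal differences. All filled points, 21 in number, lie on the side of the larger sacy-1 difference, and 16 of the 66 lie on the other side of the line.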

How the data were processed

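For each library the authors deposited 2 event lists in ce10 coordinates (build per the file headers), in which each form of an event carries a per mille score. Bowtie2, STAR and SAMtools are listed in the submitters' processing notes, with neither version nor role, and the sources used here do not say how the score was made. The score gave use in percent, included over included plus excluded. Depth is unknown. At 0.1% stood 322 to 412 library-intron events per mog-5 library and 537 to 757 per N2 az04 library.

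Use per event was compared by the moderated test of limma 3.58.1 (R 4.3.3) with no covariate, and p-values were adjusted by Benjamini-Hochberg over each catalogue separately. Class means were tested with exact permutation tests in scipy 1.17.1. The limma step was tested on simulated data. No other series' columns were used. Alternatives were another scale, a joint fit, a variance trend, other wild-type sets, other minimum differences, a filter on extreme values, joint adjustment, the median, and each library left out.

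Named events, 1 per locus, were the 20 called acceptor pairs with the largest difference, the best called and best opposite event per distance class, called events of other types, the 3 smallest p-values per other type, the calls that held with each library left out, and the 5 smallest interaction p-values. The 20 were taken among called pairs whose groups did not overlap, as held for every called pair. Events and lists were chosen with earlier results of these data known. Gene lists and sequences could not be given, since the files name no genes.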

Additional observations from a re-analysis of the deposited data

Results flagged for a closer look

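The difference between both mutant effects (mog-5 minus N2 az04, less sacy-1 minus N2 az02) passed the limma interaction test at an adjusted p below 0.05 for 124 library-intron events, of which 116 had the mog-5 effect below the sacy-1 effect and 8 had it above, and in absolute size the mog-5 effect was the smaller at 123. Among them were 12 of the named pairs, each with a smaller mog-5 effect. In points of use the difference of effects was -22.09 at A3.00138, -47.65 at A3.00167, -19.87 at A3.00214 and -29.42 at A3.00306. It was -36.12 at A3.01058, -12.62 at A3.01714, -34.46 at A3.01958 and -29.18 at A3.02334. At A3.02895, A3.02911, A3.03294 and A3.03418 it was -19.12, -47.55, -37.36 and -10.43.

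The multiple skipped exon event MS.0000003 on chromosome IV (plus strand, from 12573739 to 12576978) was flagged because its libraries moved in opposite directions in both mutants. Its use of the included form was 89%, 91% and 90.9% in mog-5, against listed values of 95.1% or more in the N2 az04 libraries, a difference of -7.99 points, while sacy-1 minus N2 az02 was 5.07 points. The mog-5 difference missed the threshold (limma adjusted p = 0.245), and the difference between both mutants was not tested for this event.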

How the results depend on the processing

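No paired analysis was possible because the labels give the libraries no replicate numbers shared between groups. Of the 67 library-intron calls, counts were 145 against N2 az02, 132 against all 6 N2 libraries, 139 with no minimum difference, 34 at 25 points, and 15 (without az043) to 42 (without az046) with a library left out. The single Ensembl call became 7 in 1 fit of all 12 libraries, 7 against all 6 N2 libraries, 7 without extreme values, 7 with joint adjustment, 39 against N2 az02, 0 at 25 points, and 0 to 1 with a library left out. The 124 interaction events became 67 to 161 with a library left out. In mean use, the sign turned for pairs of 19 nt or more (0.0382 points against all 6 N2 libraries, 0.0260 without extreme values), alternative 5′ sites (0.00773 against all 6 N2 libraries, a median of 0, and -0.0969 to 0.0588 with a library left out), first exons (a median of -0.217, and -0.0344 to 0.405), last exons (a median of -0.05) and skipped exons (0.0213 against N2 az02, a median of 0.217, and -0.393 to 0.0195). At single events the sign turned against N2 az02 at the called pairs A3.00728 (-13.8 points) and A3.02652 (-2.81), and at A3.02869 (15.46 points, and 2.92 against all 6 N2 libraries), A5.01780 (2.5), AF.0000168 (3.27), AF.0000220 (-2.39) and SE.0000377 (0.683). The cause was not tested. Over the 58 named events, 622 values under an alternative kept direction and side of the threshold and 110 fell short of it. A fit with 2 libraries left in a group pools the spread over events. Unknown depth limits every value.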
